A study of Homo sapiens with 6 samples.

Results

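The 2 arrays of biological replicate 3, 1 from control siRNA cells and 1 from HMGA1 siRNA cells, were compared with the 4 arrays of biological replicates 1 and 2, out of 6 arrays in all. The RNA on each array was that of MDA-MB-231, a triple-negative breast cancer line established from human tumour cells, taken 48 h after siRNA delivery with lipofectamine. The control siRNA group and the HMGA1 siRNA group had 3 arrays each, and the study describes them as independent knock-down experiments with 3 control populations. The siRNA against HMGA1 targets an architectural chromatin protein, and all cells, controls included, went through transfection and were grown in the same serum-containing medium. Since some labels say shRNA and others siRNA, the wording of the methods (siRNA) was followed. Arrays were chosen for this comparison by replicate number after expression values of these same arrays had been seen. The differences of replicate 3 are thus given as a description, and the p-values used below to sort them are no independent test. Whether the arrays of replicate 3 came from another culture state, another day or another hybridization batch is unrecorded, and these cannot be told apart.

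Expression was given on the log2 scale, on which a difference of 1 is a 2-fold change, for 22011 transcripts per array. The targeted gene was read from a transcript whose annotation lists HMGA1 with the pseudogene HMGA1P8. It was 10.11, 10.25 and 10.35 on control siRNA arrays 1, 2 and 3, and 9.81, 9.65 and 9.76 on HMGA1 siRNA arrays 1, 2 and 3. Each HMGA1 siRNA array, replicate 3 included, lay below each control siRNA array, with a treatment difference of -0.50 (SE 0.09). The replicate 3 arrays differed from the others by 0.10 (SE 0.10) and were not called.

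Several of the genes described here belong to known programmes. Under low oxygen, the hypoxia-inducible factors (HIFs) escape hydroxylation and degradation, bind short DNA motifs and activate genes of sugar use, acid balance and collagen modification. Breast cancer cells use adhesion molecules such as cadherins, integrins and claudins to hold on to each other and to matrix, and they secrete growth factors, proteases and matrix proteins that act on their surroundings. Replication genes, many of them targets of the E2F factors, are transcribed as cells enter S phase and are low in cells that have stopped dividing.

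Correlations between arrays over all transcripts ranged from 0.982 to 0.995. The 2 replicate 3 arrays correlated at 0.993 with each other. Control siRNA replicate 3 correlated at 0.991 with each of its own controls, and HMGA1 siRNA replicate 3 at 0.991 and 0.988 with the other HMGA1 siRNA arrays. HMGA1 siRNA replicates 1 and 2 also stood apart from each other, at 0.986. On the first principal component of the deviations from the treatment means (50% of the variance) the replicate 3 arrays scored 20.3 and 13.4, HMGA1 siRNA replicate 1 scored 16.3 and HMGA1 siRNA replicate 2 scored -29.6. The split by replicate number 3 was thus not the only structure among the 6 arrays.

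Each transcript's replicate 3 difference was fitted with limma with the treatment as a covariate, and a transcript was named "called" where its Benjamini-Hochberg adjusted p over all transcripts was under 0.05, which here sets the size of the difference against the spread between arrays. Of 22011 transcripts, 103 (0.468%) were called, 44 higher and 59 lower on the replicate 3 arrays. Absolute log2 differences of the called transcripts ran from 0.64 to 2.07, with a median of 0.99. On each of the 103 transcripts, both replicate 3 arrays lay outside the range of all 4 other arrays, on the same side. A lack of overlap given below for a called gene thus held for every called transcript. Called transcripts with 1 gene symbol covered 33 genes that were higher (0.232% of 14232 genes) and 46 that were lower (0.323%). Together these were 0.555% of all genes, the background for every count of called list members below. Whether called or not, the replicate 3 pair lay above all 4 other arrays for 1695 genes (11.9%) and below all of them for 1987 genes (14.0%). This is the background for every such count below.

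The difference was also computed within each treatment, as the replicate 3 array minus the mean of replicates 1 and 2, so that the treatments share no array. Over all transcripts the control siRNA and HMGA1 siRNA differences had r = 0.53 and rho = 0.52, given as a description over 22011 transcripts that share their arrays, and 70.4% of transcripts differed in the same direction. A difference of over 1 (log2) was found for 130 transcripts in control siRNA cells and 135 in HMGA1 siRNA cells. Of these, 55 passed in both treatments in the same direction and 1 in opposite directions. The count of calls rested on single arrays: 0 transcripts were called by limma without control siRNA replicate 1, 2 or 3 or without HMGA1 siRNA replicate 3 (2097, 1868, 1012 and 1218 at an unadjusted p under 0.05), 1046 without HMGA1 siRNA replicate 1 and 66 without HMGA1 siRNA replicate 2.

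**Figure D1:**
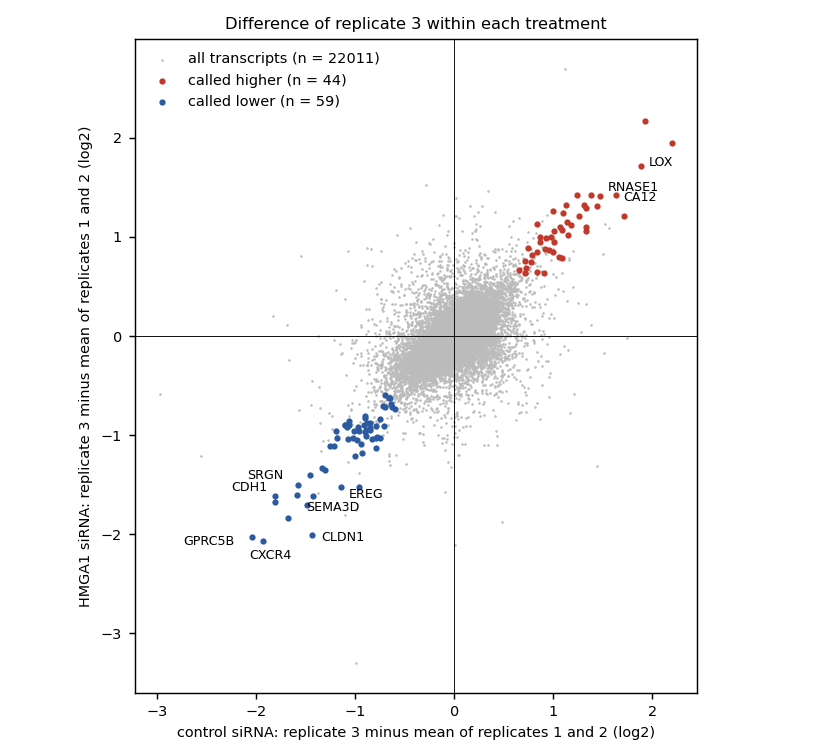
Replicate 3 minus the mean of replicates 1 and 2 in control siRNA cells (x axis, log2) and in HMGA1 siRNA cells (y axis, log2), 1 point per transcript, with the 44 transcripts called higher in red and the 59 called lower in blue. The called transcripts lie in the lower left and upper right quadrants, with 2 transcripts that list cystatin genes and LOX at the upper end and GPRC5B and CXCR4 at the lower end.

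Genes that rose on the replicate 3 arrays were led by LOX, which encodes lysyl oxidase, the enzyme that cross-links collagen and elastin. LOX expression was 9.45, 9.48 and 11.36 on control siRNA arrays 1, 2 and 3, and 9.63, 9.69 and 11.38 on HMGA1 siRNA arrays 1, 2 and 3. The log2 difference was 1.80 (SE 0.09), or 3.49-fold. Both replicate 3 arrays were higher than the other 4 and nearly equal to each other. CA12, a membrane carbonic anhydrase that regulates acid balance at the cell surface, was 8.46, 8.31 and 10.02 in control siRNA cells and 8.28, 8.3 and 9.71 in HMGA1 siRNA cells, a difference of 1.53 (SE 0.10). NDRG1, a stress-responsive gene induced by hypoxia and iron depletion, was 10.81, 10.87 and 12.29 in control siRNA cells and 10.93, 10.87 and 12.22 in HMGA1 siRNA cells, a difference of 1.38 (SE 0.08). In both genes the replicate 3 values were separated from all others by over 1 (log2), and the 4 other arrays lay close together.

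RNASE1, a secreted ribonuclease, was 8.19, 7.97 and 9.56 in control siRNA cells and 7.72, 7.60 and 9.07 in HMGA1 siRNA cells, a difference of 1.44 (SE 0.10). SCNN1A, the alpha subunit of the epithelial sodium channel, was 8.65, 8.38 and 9.82 in control siRNA cells and 8.40, 8.29 and 9.67 in HMGA1 siRNA cells (difference 1.32, SE 0.11). Neither gene had overlapping groups. Other transcripts that rose by over 1 (log2) were those of ATP8A1 (1.31), a phospholipid flippase, GPX7 (1.24), a peroxidase of the endoplasmic reticulum, DPP4 (1.22), a membrane peptidase, RNF128 (1.19), a ubiquitin ligase, ST3GAL1 (1.17), a sialyltransferase, LGALS12 (1.15), a galectin, PLEKHS1 (1.14) and TCEA3 (1.13), a transcription elongation factor. Smaller differences were called for GABRE (0.99), a subunit of the GABA-A receptor, VSTM4 (0.98), STOM (0.98), a membrane protein of lipid rafts, TSPAN1 (0.94), a tetraspanin, ZNF175 (0.93), GSN (0.91), the actin-severing protein gelsolin, BDKRB1 (0.91), a bradykinin receptor, CCDC3 (0.90), ASAP3 (0.84), SORCS2 (0.76) and ENDOD1 (0.74). The highest differences of all, 2.07 and 2.05, were found for transcripts that each list several cystatin genes, secreted inhibitors of cysteine proteases, which cannot be assigned to 1 gene.

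Of the genes that fell, GPRC5B, an orphan G protein-coupled receptor, had the largest difference. GPRC5B was 11.48, 11.40 and 9.40 in control siRNA cells and 11.24, 11.16 and 9.17 in HMGA1 siRNA cells. The difference was -2.04 (SE 0.08), or 4.10-fold lower, and both replicate 3 arrays lay far below the other 4. CXCR4, the receptor of the chemokine CXCL12 that is known for its part in breast cancer cell migration, was 9.58, 9.58 and 7.66 in control siRNA cells and 9.46, 9.41 and 7.36 in HMGA1 siRNA cells. This was a difference of -2.00 (SE 0.08), or 4.0-fold lower, with no overlap between the groups.

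SLAMF7, an immune cell receptor of the SLAM family, was 9.88, 9.55 and 8.29 in control siRNA cells and 9.59, 9.48 and 7.92 in HMGA1 siRNA cells, a difference of -1.52 (SE 0.12). SEMA3D, a secreted semaphorin, was 8.47, 8.26 and 6.78 in control siRNA cells and 8.39, 8.68 and 6.93 in HMGA1 siRNA cells, a difference of -1.59 (SE 0.12). Replicate 3 was over 1 (log2) below every other array in both genes. Further genes that fell, by 1.43 down to about 1 (log2), were CLTRN (-1.43), a kidney membrane protein, MOB3B (-1.33), RRAGD (-1.33), a Rag GTPase of nutrient signalling, RBPMS (-1.18), an RNA-binding protein, PBDC1 (-1.11), PARP8 (-1.11), ZG16B (-1.07), a secreted lectin, CYRIA (-1.06), LRIG1 (-1.06), a restraint on ErbB receptors, NUP210 (-1.02), a nuclear pore protein, GCNT4 (-1.01), a glycosyltransferase, C12orf75 (-1.0) and CHRDL1 (-1.0), a BMP antagonist.

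ID2, an inhibitor of basic helix-loop-helix factors, was 10.07, 9.83 and 8.89 in control siRNA cells and 10.59, 10.77 and 9.82 in HMGA1 siRNA cells, a replicate 3 difference of -0.96 (SE 0.12). The HMGA1 siRNA values were higher than the controls by 0.80, which was not called, and replicate 3 of the HMGA1 siRNA cells lay only just below control siRNA replicate 2. MITF (-0.71), the melanocyte master regulator, NRIP1 (-0.85), a nuclear receptor corepressor, HOXB9 (-0.90), MAOA (-0.94), the monoamine oxidase, ANK2 (-0.94), an ankyrin, RASGRP3 (-0.92), F2RL2 (-0.93), a thrombin receptor, RBM24 (-0.98), ZNF597 (-0.98), CACNG7 (-0.96), GRAMD1B (-0.95), CYSTM1 (-0.90), AK5 (-0.89), MB21D2 (-0.88), H2AC15 (-0.86), a histone H2A gene, UBASH3B (-0.79), DMAC1 (-0.71), DSTN (-0.65), the actin depolymerizing factor destrin, and PFDN2 (-0.64), a prefoldin subunit, also fell. Transcripts that list several pregnancy-specific glycoprotein genes (-1.76) or several SPANX genes (-1.74) fell and cannot be assigned to 1 gene. Of the 103 called transcripts, 13 listed several genes and 11 (3 higher, 8 lower) had no gene name.

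**Figure D2:**
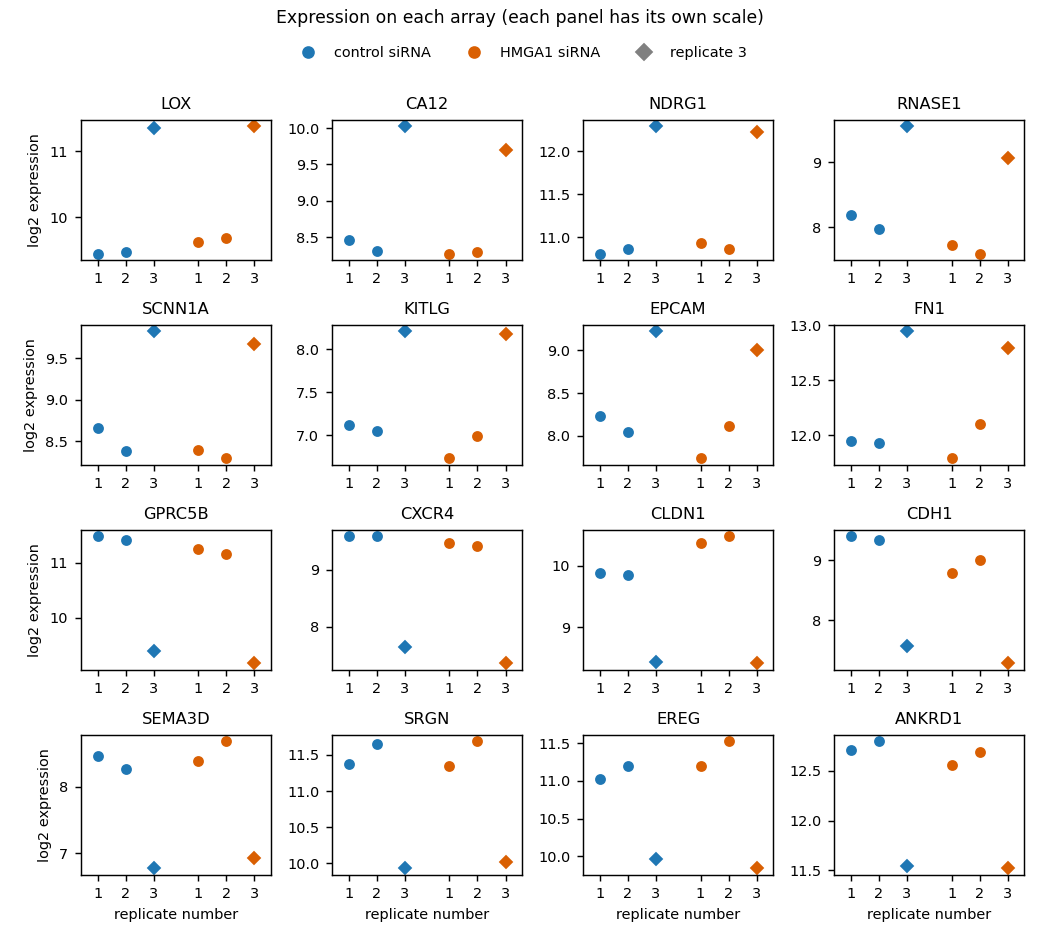
Expression (y axis, log2, each panel on its own scale that does not start at 0) on each of the 6 arrays for 8 genes that rose and 8 that fell, by replicate number (x axis), with control siRNA in blue, HMGA1 siRNA in orange and replicate 3 as diamonds. In every panel both diamonds lie outside the range of the 4 circles.

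The hypoxia list held 56 measured genes of 65. Of these, 6 rose and 0 fell (10.7% called, against 0.555% of all genes). Both replicate 3 arrays lay above all 4 other arrays for 30 members (53.6% of the list, against 11.9% of all genes) and below them for 2. Like the other gene lists, this one was chosen with earlier results of these arrays known, so such shares are a description. They hold for list members only, and called genes outside the list, such as CXCR4 (-2.00), were not counted. The median difference was 0.21, against 0.029 over all 14232 genes, and it was 0.22 in control siRNA cells and 0.22 in HMGA1 siRNA cells. In both treatments 43 members were higher and 8 were lower. The median deviation of the list from the gene means was 0.18 and 0.10 on the replicate 3 arrays of control and HMGA1 siRNA cells, and between -0.10 and -0.038 on the other 4.

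Targets in acid balance, oxygen sensing and survival (24 measured) had a median of 0.29, and 3 of them were called (NDRG1, CA12 and BHLHE41). BHLHE41, a circadian repressor, was 7.99, 8.10 and 8.83 in control siRNA cells and 8.20, 8.02 and 8.93 in HMGA1 siRNA cells, a difference of 0.80 (SE 0.09) with no overlap. Not called, but with replicate 3 above all other arrays, were TMEM45A (0.62), WSB1 (0.41), MXI1 (0.39), a MYC antagonist, RORA (0.39), RLF (0.39), SPAG4 (0.38), INSIG2 (0.37), a brake on sterol synthesis, CCNG2 (0.32), KDM3A (0.32), KDM4C (0.26) and KDM4B (0.22), histone demethylases, and HILPDA (0.16), a lipid droplet protein. BNIP3 (0.12), BNIP3L (0.07) and ERO1A (0.18) overlapped with the other arrays, and AKAP12 (-0.44) and VLDLR (-0.35) were below them.

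Sugar metabolism targets (10 measured) were higher in both treatments in 10 of 10 cases, with a median of 0.30. PDK1, a kinase that inhibits pyruvate dehydrogenase, was 10.08, 10.00 and 11.04 in control siRNA cells and 9.86, 9.95 and 10.97 in HMGA1 siRNA cells. It rose by 1.03 (SE 0.08), and both replicate 3 arrays were about 1 above the rest. PFKFB4 (0.56) and PFKFB3 (0.26), which set the level of a glycolytic activator, PDK3 (0.45), HK2 (0.42), a hexokinase, GBE1 (0.26), a glycogen enzyme, GYS1 (0.18), glycogen synthase, and SLC2A1 (0.17), the glucose transporter GLUT1, had replicate 3 above all other arrays and were not called. In the separate list of glycolysis enzymes, 7 of 14 did so (ALDOC 0.49, PGK1 0.31, ENO1 0.29, ENO2 0.25, LDHA 0.17, GPI 0.13 and PKM 0.05), none was called, and LDHB was below (-0.26). Its median was 0.088.

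Among secreted and matrix targets (12 measured, median 0.21), LOX and PLOD1 rose. PLOD1, a lysyl hydroxylase of collagen, was 11.09, 11.14 and 11.84 in control siRNA cells and 11.07, 11.12 and 11.74 in HMGA1 siRNA cells, a difference of 0.68 (SE 0.08). The prolyl hydroxylase subunit P4HA1 had a larger difference of 0.93 (SE 0.18) that was not called. Its values were 10.37, 10.57 and 11.30 in control siRNA cells and 9.94, 10.54 and 11.28 in HMGA1 siRNA cells, so the groups did not overlap but HMGA1 siRNA replicate 1 lay well below replicate 2. IGFBP3 (0.51) and P4HA2 (0.38) were above all other arrays. VEGFA (0.14), the angiogenic factor, ADM (-0.12) and PLOD2 (-0.01) overlapped with them.

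Regulators of HIF (10 measured) had a median of 0.014, with 0 called. EGLN3, a HIF hydroxylase that is itself a HIF target, was 8.94, 8.93 and 9.56 in control siRNA cells and 8.89, 8.91 and 9.38 in HMGA1 siRNA cells (difference 0.55, SE 0.08), above all other arrays but not called. HIF1A (0.07), EPAS1 (-0.16), ARNT (-0.05), VHL (-0.25), the ligase that marks HIF for degradation, and HIF1AN (-0.20) had replicate 3 arrays that overlapped with the others. RNA of the HIF subunits did not separate the replicate 3 arrays, and HIF protein was not measured.

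**Figure D3:**
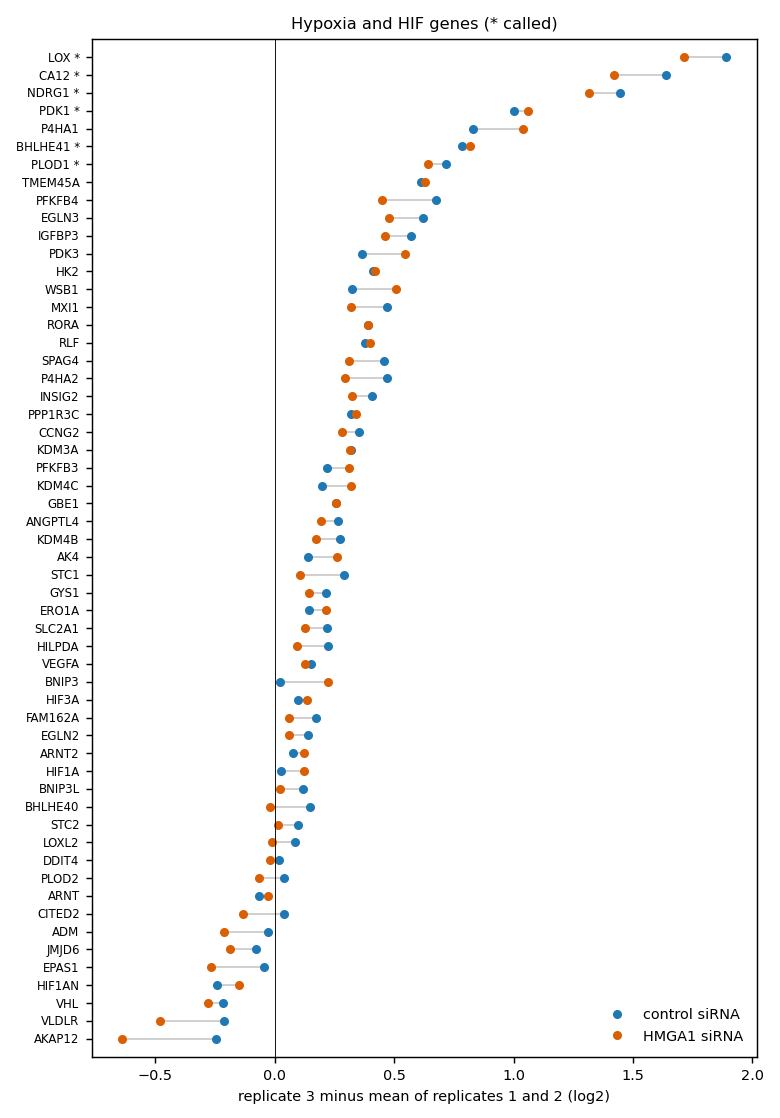
Replicate 3 minus the mean of replicates 1 and 2 (x axis, log2) in control siRNA cells (blue) and in HMGA1 siRNA cells (orange) for the 56 measured hypoxia and HIF genes, ordered by their fitted difference, with the 6 called genes starred. LOX, CA12, NDRG1 and PDK1 lie furthest to the right, and 43 genes have both points above 0.

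To show the DNA beside these values, promoter sequence from RefSeq (GRCh38.p14) was searched for the core of the hypoxia response element, ACGTG or GCGTG on either strand, in the 250 bases before the start of each gene. A match was present in 37 of 46 hypoxia list genes with a promoter (80.4%), 4 of 5 called ones, 59.7% of replication list genes, 38.5% of secreted list genes and 43.1% of all 27305 promoters. Of called genes with a promoter, 60.9% of those that rose and 58.8% of those that fell held one. These letters hold a CpG and recur in any promoter rich in such pairs, and many members of the list are known as HIF targets, so a match is a description. The promoters of LOX, with 4 matches, PLOD1, with 2, and CA12, with 1, are shown because these are 3 of the 6 called members, with the matched letters in capitals.
LOX (chr5:122078260-122078509, minus strand): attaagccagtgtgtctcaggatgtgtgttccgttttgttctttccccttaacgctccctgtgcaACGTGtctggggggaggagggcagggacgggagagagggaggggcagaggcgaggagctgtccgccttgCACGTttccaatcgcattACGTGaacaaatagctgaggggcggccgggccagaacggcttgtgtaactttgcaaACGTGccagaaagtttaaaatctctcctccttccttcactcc
PLOD1 (chr1:11934467-11934716, plus strand): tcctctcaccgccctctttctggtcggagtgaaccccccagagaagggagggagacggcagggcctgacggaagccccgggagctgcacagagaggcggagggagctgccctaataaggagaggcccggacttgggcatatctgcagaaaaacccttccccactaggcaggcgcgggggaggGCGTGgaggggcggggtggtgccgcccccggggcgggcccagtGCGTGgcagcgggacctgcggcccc
CA12 (chr15:63381847-63382096, minus strand): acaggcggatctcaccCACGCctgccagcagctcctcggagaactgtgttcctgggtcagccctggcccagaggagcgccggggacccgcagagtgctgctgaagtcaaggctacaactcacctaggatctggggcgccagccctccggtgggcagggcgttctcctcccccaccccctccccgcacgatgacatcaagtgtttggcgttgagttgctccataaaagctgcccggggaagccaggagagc
The LOX matches start 185, 116, 98 and 42 bases before the gene's start, and the PLOD1 matches 68 and 25 bases before it. PDK1, which rose by 1.03, held none in this window.

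Adhesion genes moved in both directions. Of 82 measured members of 98, 3 rose and 2 fell (6.10% called, against 0.555% of all genes). Replicate 3 lay above all other arrays for 22 (26.8%, against 11.9% of all genes). It lay below them for 14 (17.1%, against 14.0%), a share near that of all genes. The median was 0.027, close to that of all genes. Cadherins and other cell-cell receptors (32 measured) held the widest range, from -1.71 to 1.08. CDH1, E-cadherin of epithelial junctions, was 9.40, 9.34 and 7.56 in control siRNA cells and 8.78, 9.01 and 7.28 in HMGA1 siRNA cells. It fell by 1.71 (SE 0.10), or 3.28-fold, with both replicate 3 arrays over 1 below the lowest of the others. In contrast, EPCAM, another epithelial adhesion molecule, was 8.23, 8.05 and 9.22 in control siRNA cells and 7.74, 8.12 and 9.0 in HMGA1 siRNA cells, and rose by 1.08 (SE 0.13) without overlap.

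CDH11, a cadherin of mesenchymal cells, rose by 0.71 (11.32, 11.14 and 11.96 in control siRNA cells, 11.40, 11.36 and 12.07 in HMGA1 siRNA cells), and PCDH7, a protocadherin, fell by 0.90 (8.62, 8.39 and 7.66, then 8.73, 8.72 and 7.78). Both genes separated the 2 replicate 3 arrays from the other 4. CDH2, N-cadherin (-0.39), and VCAM1 (-0.17) lay below all other arrays and MCAM (-0.60) below those of its own treatment, and none of these was called. ICAM1 (0.37), L1CAM (0.51), the desmosome genes DSP (0.34) and DSC2 (0.34), and CD44 (0.19), the hyaluronan receptor, were above all other arrays and not called.

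CLDN1, a tight junction claudin that no list held, was 9.88, 9.85 and 8.43 in control siRNA cells and 10.37, 10.48 and 8.41 in HMGA1 siRNA cells, and fell by 1.72 (SE 0.14). The replicate 3 values were alike in both treatments while the other HMGA1 siRNA arrays were higher than their controls, so that the difference was -1.44 in control siRNA and -2.01 in HMGA1 siRNA cells. MPZL2 (-0.66), an epithelial adhesion protein, fell as well. The keratin KRT19 (0.77), a luminal marker, rose.

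Integrin subunits (16 measured, 0 called) had a median of 0.11. ITGB4 (0.68, SE 0.10), ITGA5 (0.51), ITGA6 (0.39) and ITGA3 (0.12) lay above all other arrays, and ITGB2 (-0.36) and ITGB3 (-0.30) below them. For ITGB4, the beta subunit of hemidesmosomes, the values were 11.21, 11.07 and 11.85 in control siRNA cells and 11.13, 10.94 and 11.69 in HMGA1 siRNA cells. Both subunits of the laminin receptor formed by ITGA6 and ITGB4 were above the other arrays, without a call. Focal adhesion and actin link genes (20 measured, 0 called) had a median of -0.060, with ZYX (-0.29), FERMT1 (-0.26), PARVA (-0.18), ACTN1 (-0.18) and VCL (-0.17) below all other arrays and NEDD9 (0.68, SE 0.09), a scaffold of focal adhesions, above them.

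Adhesion substrates (14 measured, median 0.074) held FN1, fibronectin, which was 11.95, 11.94 and 12.95 in control siRNA cells and 11.79, 12.10 and 12.80 in HMGA1 siRNA cells. FN1 rose by 0.93 (SE 0.11), or 1.90-fold, and both replicate 3 arrays were above the highest of the others. TNC (0.64), tenascin C, VTN (0.53), vitronectin, and LAMA5 (0.25) were above all other arrays and LAMA4 (-0.24) was below, without calls.

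Secreted proteins also moved both ways. Of 163 measured members of 188, 2 rose and 2 fell (2.45% called, against 0.555% of all genes). Replicate 3 lay above all other arrays for 48 (29.4%, against 11.9% of all genes) and below for 22 (13.5%, against 14.0%). The median was 0.063, with 0.12 in control siRNA cells and 0.020 in HMGA1 siRNA cells. These counts cover list members only. Other called genes of secreted proteins, such as RNASE1 (1.44), SEMA3D (-1.59) and ZG16B (-1.07), were not on the list. The growth factors (35 measured) held 3 of the list's 4 calls. KITLG, the ligand of the receptor KIT, was 7.12, 7.05 and 8.21 in control siRNA cells and 6.73, 7.0 and 8.18 in HMGA1 siRNA cells, and rose by 1.22 (SE 0.11). JAG1, a Notch ligand, was 10.56, 10.61 and 11.30 in control siRNA cells and 10.06, 10.20 and 10.88 in HMGA1 siRNA cells, and rose by 0.73 (SE 0.08). EREG, a ligand of the EGF receptor, was 11.02, 11.19 and 9.97 in control siRNA cells and 11.19, 11.53 and 9.84 in HMGA1 siRNA cells, and fell by 1.33 (SE 0.15). None of these 3 genes had overlapping groups.

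Other growth factors were not called. ANGPT1 (0.70), BMP4 (0.41), VEGFB (0.44), PDGFC (0.39), BDNF (0.33), VEGFC (0.33) and TGFB1 (0.32) were above all other arrays, and INHBA (-1.17), EDN1 (-0.59), FGF5 (-0.45) and FGF1 (-0.34) below them. INHBA, the activin A subunit, was 8.67, 9.14 and 7.94 in control siRNA cells and 8.66, 9.17 and 7.54 in HMGA1 siRNA cells. Its SE of 0.21 was larger than that of the called genes, and replicates 1 and 2 differed in both treatments.

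Cytokines and chemokines (28 measured, 0 called) had 5 members below all other arrays (17.9%, against 14.0% of all genes). They had 2 above (7.14%, against 11.9%). Of the 28 differences, 17 were positive and 11 negative, but the largest in size were negative. IL18 was 8.16, 7.90 and 6.75 in control siRNA cells and 7.62, 8.12 and 6.82 in HMGA1 siRNA cells (difference -1.16, SE 0.17). CXCL11, an interferon-induced chemokine, was 10.25, 10.23 and 8.89, then 10.51, 10.88 and 9.81 (difference -1.11, SE 0.15). IL6 was 9.93, 10.42 and 9.28, then 9.92, 10.74 and 9.40 (difference -0.91, SE 0.25). In all 3 the replicate 3 arrays lay below the others. IL11 (-0.56) and IL32 (-0.21) did so too, while CX3CL1 (0.19) and CCL5 (0.14) lay above, and the median of the group was 0.052.

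Secreted inhibitors and carriers (35 measured) had 1 call. SRGN, the proteoglycan serglycin of secretory granules, was 11.37, 11.65 and 9.93 in control siRNA cells and 11.35, 11.69 and 10.02 in HMGA1 siRNA cells, and fell by 1.54 (SE 0.14) with no overlap. CLU (0.80), the extracellular chaperone clusterin, IGFBP7 (0.63) and TFPI (0.45) were above all other arrays, and CCN3 (-0.60), NTN4 (-0.58), NOG (-0.45), a BMP antagonist, CCN1 (-0.40) and TFPI2 (-0.39) below them. Collagens and matrix proteins (29 measured, 0 called) included TGFBI (0.63), COL5A1 (0.55) and COL6A3 (0.32) above, and COL4A1 (-0.34) below.

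Proteases and their inhibitors (36 measured, 0 called) had 16 members above all other arrays (44.4%) and 1 below, with a median of 0.12. The group was led by inhibitors. TIMP3 (0.53), TIMP4 (0.44), TIMP1 (0.29) and TIMP2 (0.21), the tissue inhibitors of metalloproteinases, were 4 of them, with CST6 (0.53) and CST3 (0.33), cystatins, and SPINT2 (0.34) and SPINT1 (0.23), serine protease inhibitors. TIMP3 was 12.62, 12.34 and 13.03 in control siRNA cells and 12.49, 12.44 and 12.98 in HMGA1 siRNA cells. Proteases above all other arrays were ADAMTS1 (0.43), ADAMTS15 (0.37), ADAM12 (0.36), HTRA1 (0.24), CTSB (0.23), MMP9 (0.16) and MMP14 (0.13), and ADAMTS6 (-0.31) was below. ADAMTS16, which no list held, fell by 0.67. The counts of this group leave out transcripts that list several genes, and so CST1, CST4 and SERPINA1. Such transcripts were called higher for several cystatin genes (2.07, 2.05 and 1.33) and for SERPINA1 with SERPINA2 (1.09).

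Replication genes were lower on the replicate 3 arrays by small amounts. Of 91 measured members of 100, 0 were called by limma, 33 had both replicate 3 arrays below all 4 others (36.3%, against 14.0% of all genes) and 2 had both above. The median was -0.17, with -0.22 in control siRNA cells and -0.10 in HMGA1 siRNA cells. In both treatments 68 members were lower and 8 were higher. The median deviation of the list was -0.19 on control siRNA replicate 3, against -0.0012 and 0.049 on the other controls. On HMGA1 siRNA replicate 3 it was -0.019, against -0.018 on replicate 1 and 0.18 on replicate 2, so in HMGA1 siRNA cells the list as a whole separated replicate 3 from replicate 2 only. In bulk RNA, fewer cells in S phase and less of each RNA per cell cannot be told apart.

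By role, the medians were -0.17 for origin licensing and firing (26 measured, 7 below all other arrays), -0.17 for polymerases, clamp and fork proteins (25 measured, 5 below), -0.19 for nucleotide synthesis (18 measured, 9 below) and -0.18 for S-phase regulators and chromatin assembly (22 measured, 12 below). CCNE1, cyclin E1, which drives entry into S phase, had the largest difference, with 9.33, 9.38 and 8.74 in control siRNA cells and 9.26, 9.42 and 8.93 in HMGA1 siRNA cells (difference -0.51, SE 0.10). GINS2, a subunit of the replicative helicase, was 10.14, 10.18 and 9.51 in control siRNA cells and 10.08, 10.41 and 9.92 in HMGA1 siRNA cells (difference -0.49, SE 0.13). DCK, deoxycytidine kinase of nucleotide salvage, was 9.45, 9.42 and 8.78, then 9.24, 9.57 and 9.14 (difference -0.46, SE 0.14). In GINS2 and DCK the gap between replicate 3 and the nearest other array was wider in control siRNA cells than in HMGA1 siRNA cells.

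Further members below all other arrays were the licensing and firing genes MCM10 (-0.37), CDC6 (-0.34), CDC45 (-0.32), TOPBP1 (-0.30), GINS3 (-0.27) and MCM2 (-0.22), the clamp loader subunits RFC4 (-0.43), RFC2 (-0.34) and RFC3 (-0.26), and the polymerase subunit POLE (-0.18). Of nucleotide synthesis genes, MTHFD2 (-0.41), RRM2 (-0.27), SHMT1 (-0.27), UMPS (-0.26), GART (-0.23), ATIC (-0.22), MTHFD1 (-0.20) and TYMS (-0.19) were below. The histone chaperones ASF1B (-0.33), CHAF1B (-0.31), ASF1A (-0.31) and CHAF1A (-0.18), and the regulators MYBL2 (-0.27), E2F3 (-0.25), E2F1 (-0.20), CDC25A (-0.18) and SKP2 (-0.16) were below too. ORC1 (0.19) and E2F7 (0.12) were above.

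An E2F site, spelled TTTCCCGC, TTTGGCGC, TTTCGCGC or TTTGCCGC on either strand, was present in the 250 bases before the start of 18 of 77 replication genes with a promoter (23.4%), against 2.79% of all promoters, 5.13% of mitosis list genes and 2.17% of hypoxia list genes. With 50 bases after the start included, the shares were 36.4% and 3.33% for replication genes and all promoters. The promoters of GINS2 and E2F1, both below all other arrays on the replicate 3 arrays, are shown with the matches in capitals, since they hold 1 and 2 such sites close to the start. A match is a description of the letters only.
GINS2 (chr16:85688955-85689204, minus strand): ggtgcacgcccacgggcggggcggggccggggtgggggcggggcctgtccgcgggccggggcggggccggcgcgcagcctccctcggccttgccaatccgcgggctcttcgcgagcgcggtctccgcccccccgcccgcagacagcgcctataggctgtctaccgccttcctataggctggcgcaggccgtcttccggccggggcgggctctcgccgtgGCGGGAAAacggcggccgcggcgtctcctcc
E2F1 (chr20:33686386-33686635, minus strand): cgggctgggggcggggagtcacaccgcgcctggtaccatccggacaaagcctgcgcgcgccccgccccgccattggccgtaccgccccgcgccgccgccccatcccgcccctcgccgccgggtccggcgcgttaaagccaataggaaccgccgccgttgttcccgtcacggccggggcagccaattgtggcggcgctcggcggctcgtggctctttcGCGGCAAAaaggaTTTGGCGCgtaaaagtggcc
The GINS2 match starts 31 bases before the gene's start, and the E2F1 matches 33 and 20 bases before it. The promoters of CCNE1, DCK, RFC4 and most other replication genes below all other arrays held none in this window.

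Genes of mitosis (45 measured, 0 called) had a median of -0.065, with 3 below all other arrays (BIRC5 -0.32, CDC25C -0.21 and SPC24 -0.09) and 1 above (CDC20 0.27). These were 6.67% and 2.22% of the group, against 14.0% and 11.9% of all genes. DNA repair genes (25 measured, 0 called) had a median of -0.19. Below all other arrays were 6 (24.0%, against 14.0% of all genes), among them PARP1 (-0.50), BARD1 (-0.34) and BRIP1 (-0.26). Above them were 2, among them XRCC4 (0.48). In HMGA1 siRNA cells the median deviation of the repair genes was -0.030 on replicate 3, -0.070 on replicate 1 and 0.22 on replicate 2. There, the group as a whole thus lay below replicate 2 only. Of growth arrest and quiescence genes (24 measured, 0 called), 4 were above (TXNIP 0.88, SESN3 0.49, CDKN1A 0.48 and TP53INP1 0.19), with a median of 0.075. That is 16.7%, against 11.9% of all genes, a share near the background. TXNIP, a thioredoxin-binding protein that limits glucose uptake, was 10.76, 10.85 and 11.73 in control siRNA cells and 10.69, 11.06 and 11.70 in HMGA1 siRNA cells. CDKN1A, the kinase inhibitor p21, was 9.49, 9.48 and 9.97, then 9.29, 9.30 and 9.77, with the lowest replicate 3 value above the highest of the others.

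Ribosome biogenesis genes (23 measured, 0 called) were below all other arrays in 12 cases (52.2%) and above in 1, with a median of -0.16 and the largest differences in RRS1 (-0.48), DDX21 (-0.42) and NOLC1 (-0.27). Respiratory chain genes (27 measured, 0 called) had 9 below, such as COX6C (-0.49), CYC1 (-0.42) and NDUFA1 (-0.41), and 4 above, among them COX5B (0.50), with a median of -0.13. Ribosomal protein genes (13 measured of 31, 0 called) had a median of -0.083, from RPS24 (-0.62) to RPL8 (0.15).

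NF-kappaB feedback and response genes (12 measured, 0 called) had negative differences in 12 of 12 cases, a median of -0.19 and 5 members below all other arrays (PTGS2 -0.50, CYLD -0.38, NFKB1 -0.34, NFKB2 -0.32 and NFKBIE -0.25). ATF4 and amino acid limitation targets (21 measured, 0 called) had 8 below, with SLC7A11 (-0.60), the cystine transporter, AARS1 (-0.30) and SLC7A5 (-0.26), and a median of -0.13. Of YAP and TEAD targets (18 measured, median -0.092), ANKRD1 fell by 1.16 (SE 0.09). Its values were 12.71, 12.80 and 11.54 in control siRNA cells and 12.56, 12.70 and 11.52 in HMGA1 siRNA cells, with no overlap. NUAK2 (-0.52), AJUBA (-0.43), CCN1 (-0.40), DLC1 (-0.38) and F3 (-0.24) were below all other arrays without a call.

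The interferon response list (29 measured, 0 called, median -0.052) had 5 members above all other arrays (17.2%, against 11.9% of all genes) and 3 below (10.3%, against 14.0%), near the background. IFIT2 (-0.53), IFIT3 (-0.46) and OAS3 (-0.27) were below, and RSAD2 (0.69), IFI6 (0.53), IFI44L (0.30), IFI27 (0.26) and IRF9 (0.23) above them. Fatty acid genes (14 measured, 0 called, median 0.11) had 6 above and 0 below, with LPIN1 (0.52), FADS2 (0.29) and SCD (0.27), and sterol synthesis genes (14 measured, 0 called, median -0.016) had 3 above, with MSMO1 (0.58). Immediate early genes (24 measured, 0 called, median 0.0080) and lysosome and autophagy genes (20 measured, 0 called, median -0.039) had as many members above as below all other arrays, 2 and 2, and 3 and 3. Of the NRF2 targets (9 measured, 0 called, median -0.024), GCLM (-0.47), GCLC (-0.28) and SRXN1 (-0.27) were below. Chaperones of the endoplasmic reticulum (14 measured, 0 called, median -0.018) had 3 above, with XBP1 (0.24) and HSPA5 (0.17), and heat shock proteins (10 measured, 0 called, median -0.055) had 0 above and 2 below, DNAJB1 (-0.20) and BAG3 (-0.08).

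**Figure D4:**
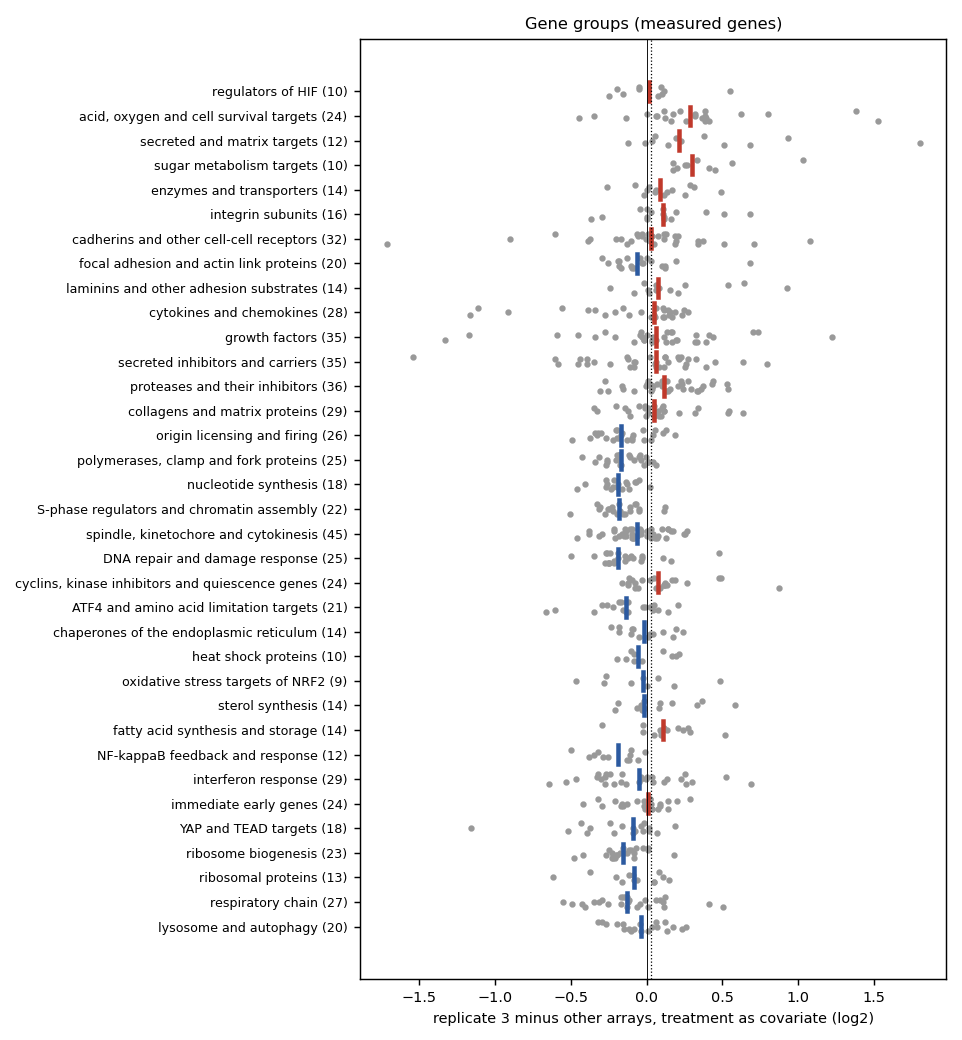
Fitted replicate 3 difference (x axis, log2) of every measured gene, 1 grey point each, by gene group with the number of genes in parentheses (y axis). Thick bars mark group medians, red above 0 and blue below, and the dotted line is the median of all genes, 0.029. Hypoxia targets have the highest medians, and nucleotide synthesis, NF-kappaB and repair groups the lowest.

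**Figure D5:**
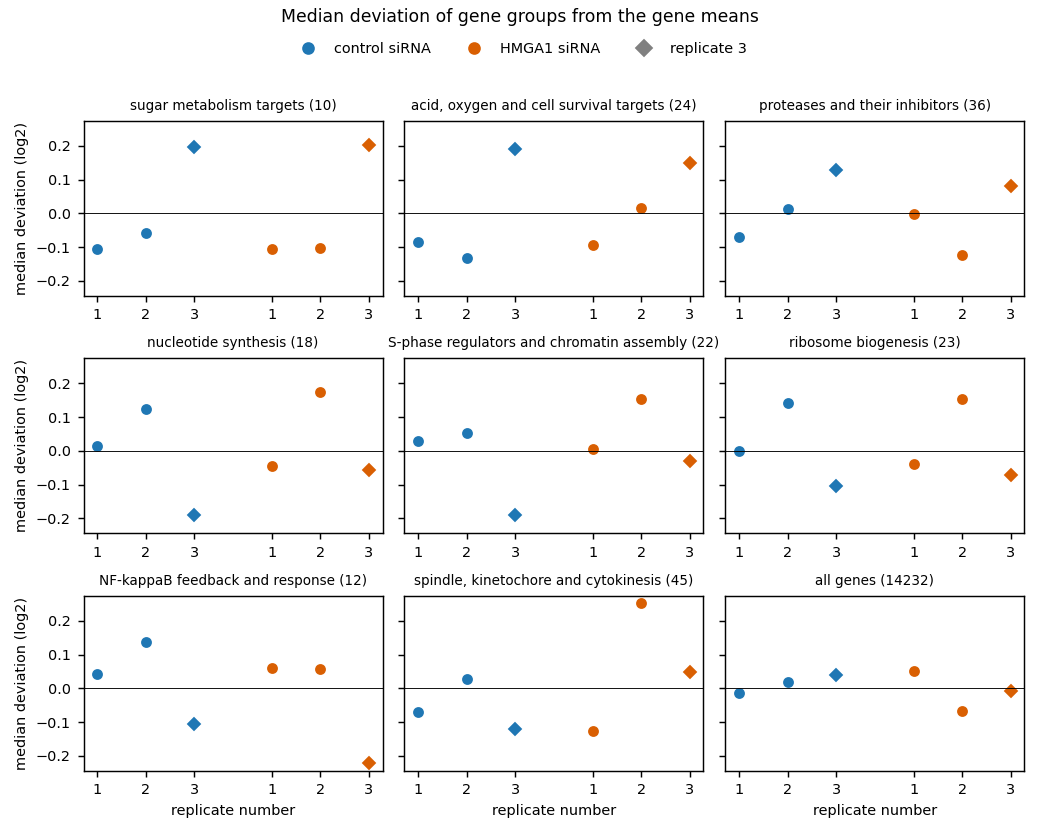
Median deviation (y axis, log2) of 8 gene groups and of all 14232 genes from the gene means on each of the 6 arrays, by replicate number (x axis), control siRNA in blue, HMGA1 siRNA in orange, replicate 3 as diamonds. Both diamonds stand above the circles for the hypoxia and protease groups. They stand below them for the NF-kappaB, nucleotide synthesis, S-phase and ribosome biogenesis groups, and among them for mitosis. In the groups of nucleotide synthesis, ribosome biogenesis and mitosis HMGA1 siRNA replicate 2 is the array furthest up.

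Since the treatment was balanced over replicate number 3, the treatment contrast was not used to single out these arrays. With the replicate 3 term in the fit, 0 transcripts (0%) were called by limma between HMGA1 siRNA and control siRNA, with 1151 at an unadjusted p under 0.05 (1316 and 0 called with an unmoderated test), and the smallest adjusted p was 0.274. Without the term, 0 were called, with 728 at an unadjusted p under 0.05, and the smallest adjusted p by limma was 0.262. Whether the difference of replicate 3 had the same size under both treatments was asked with an interaction term. By limma 0 transcripts (0%) were called for it, with 299 at an unadjusted p under 0.05 (409 and 0 called with an unmoderated test) and a smallest adjusted p of 1.00. With 1 replicate 3 array per treatment, this does not show that the differences were equal.

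As a check of the cells, transcripts of markers were read on all 6 arrays. Of 11 mesenchymal markers typical of MDA-MB-231, 0 were called, and the median difference was 0.018. VIM (vimentin, mean 12.92) differed by 0.10 and ZEB1 (mean 11.06) by -0.0020. Of 16 luminal and epithelial markers, EPCAM and KRT19 rose and CDH1 fell, and the other 13 were not called, among them ESR1 (0.04) and PGR (0.07). The markers of blood cells (10 measured), endothelium (8) and fibroblasts (9) were not called. The median level of the blood markers was 7.30 and 6.80 on the replicate 3 arrays and 7.0 to 7.24 on the others, that of the endothelial markers 7.37 and 7.06 against 7.04 to 7.37, and that of the fibroblast markers 7.21 and 7.12 against 6.89 to 7.17. LYZ (0.71), LUM (0.54), PDGFRB (0.35) and PECAM1 (0.30) lay above all other arrays, KDR (-0.86) below, and PTPRC, FAP and POSTN, defining markers of blood cells and fibroblasts, had mean levels of 4.45, 4.21 and 4.40, in the dimmest of 5 level groups of transcripts (up to 6.52). The part of other cells in the differences was not tested.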

How the data were processed

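A single table deposited by the authors held log2 expression of 22011 transcripts on 6 Affymetrix GeneChip Human Exon 1.0 ST arrays, made with RMA (background correction, normalization between arrays, summary of probes) in the oligo package. The submitters' processing notes also name limma and hg18, with no versions. RMA compresses the differences of dim transcripts, and the number of arrays limits the precision. No other column of per-sample values was present (0), and no 2 arrays were identical.

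Values were fitted in R 4.3.3 with limma 3.58.1 (lmFit, eBayes, two-sided) on treatment and replicate number 3, with the 22011 p-values adjusted by Benjamini-Hochberg and a threshold of 0.05. Interaction and treatment terms were fitted likewise. Of 14432 transcripts with 1 gene symbol, 14404 matched RefSeq (GRCh38.p14 table, names and promoters), giving 14232 genes, each by the transcript of its highest mean. Transcripts listing several genes (2408) or none (5171) were tested but not assigned to a gene, apart from HMGA1. Of the 91 replication genes 77, and of the 56 hypoxia genes 46, had a promoter sequence.

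The arrays, gene lists and rule for named genes were chosen with earlier results of these data known. The rule took the 20 highest and 20 lowest called genes, then up to 4 called members per role and direction of each list. Any other list member could be named where its call is given, and called genes outside both parts (such as MITF, MPZL2, PFDN2) were named after their values were seen. Promoters were shortened to the bases before the start after both lengths had been seen. The fit was tested on simulated data. Alternatives were quantile normalization, median centring, a filter on dim transcripts, another prior, an unmoderated test, no treatment covariate, a replicate block, 1-symbol transcripts, a threshold of 0.10, the mean over a gene's transcripts, and leaving out each array. Figures were drawn with matplotlib 3.10.9.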

Additional observations from a re-analysis of the deposited data

Results flagged for a closer look

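In the 4 function lists, 15 genes had a replicate 3 array on one side of both other arrays in control siRNA cells and on the opposite side in HMGA1 siRNA cells. The values below are the HMGA1 siRNA difference of replicate 3 minus the control siRNA difference (log2), tested with the interaction term of limma, which called 0 of 22011 transcripts. CXCL2, a neutrophil chemokine, differed most, at 0.69 (-0.097 in control siRNA and 0.60 in HMGA1 siRNA cells). Of other secreted proteins, SLPI differed by -0.54, IGFBP1 by -0.46, BMP2 by -0.38, PI3 by -0.36, CXCL8 by -0.35, BTC by -0.26, ANGPT2 by -0.24, MMP13 by 0.14 and MMP1 by 0.14. The hypoxia genes CITED2 and LOXL2 differed by -0.17 and -0.098, the adhesion gene CTNNA1 by -0.095, and the replication genes ORC6 and RPA2 by 0.17 and -0.072. With 1 replicate 3 array per treatment, the spread of such a difference rests on the replicates 1 and 2 alone.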

How the results depend on the processing

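No called gene and no list median changed direction under the alternatives run for it (63 of the 79 genes remained in the filter on dim transcripts, and the medians were run with both other normalizations, that filter, the mean over transcripts and each array left out), but the number of calls changed. For called genes, leaving out an array could not change the direction, since both replicate 3 arrays already lay outside the range of all others. Against 103 called transcripts (44 higher, 59 lower), 407 (167, 240) were called with the dimmest 40% of transcripts left out, 371 (144, 227) with a trended and robust prior, 164 (73, 91) with no treatment covariate, 212 (92, 120) with 1-symbol transcripts only, 247 (101, 146) at a threshold of 0.10 and 5 (1, 4) with an unmoderated test. Of the 103, 81 were among the 407, 103 among the 371, 93 among the 164, 79 among the 212, 103 among the 247 and 0 among the 5. The replicate block called 17 (8, 9), all among the 103, and 12 of the 79 genes stayed called with it. The replicate numbers were not taken to pair the samples, since deviations of same-numbered arrays correlated at -0.20, 0.26 and 0.53 for numbers 1, 2 and 3. That choice was made on values of these same arrays. Leaving out each array in turn gave 0 to 1046 calls (0 to 332 higher, 0 to 714 lower). It gave medians of 0.18 to 0.25 for hypoxia, 0.0016 to 0.10 for adhesion, 0.020 to 0.13 for secreted proteins and -0.22 to -0.10 for replication. Treatment calls were 0 except for 16 with the trended and robust prior, and interaction calls 0 to 12 when an array was left out. The interaction could not be fitted without either replicate 3 array. With 6 arrays, the spread rests on few values, dim transcripts are limited by background signal, and the cause was not tested in any of these cases.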
